A study of Mus musculus with 8 samples.

Results

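The p200 family, also called the PYHIN or AIM2-like receptor family, was read here in bone marrow-derived macrophages (BMDMs) after knockdown of MAARS, a macrophage long non-coding RNA. The members were the rows whose Ensembl genes carry the symbols Aim2, Ifi203, Ifi204, Ifi205, Ifi207, Ifi209, Ifi211, Ifi213, Mnda and Mndal in GENCODE M21. These 10 symbols gave 9 genes of the 49315 in the table. Mnda is no gene name in that annotation, and RefSeq lists it as an older name of Ifi211, so it was counted under Ifi211. All 9 genes were among the 13051 genes that passed the filter on low counts and were tested. Their lowest count was 1108 in a control library and 43 in a MAARS gapmeR library, so each would have passed on either group alone.

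The libraries were made from marrow of C57BL/6 mice, differentiated with 10 ng/ml M-CSF (macrophage colony-stimulating factor, the growth factor that turns marrow progenitors into macrophages). Both groups were transfected at 25 nM per the labels with gapmeRs, antisense oligonucleotides that direct RNase H to a target RNA. The 4 control gapmeR libraries (replicates 2, 5, 6 and 7) received control gapmeRs and the 4 MAARS gapmeR libraries (replicates 9, 11, 13 and 15) gapmeRs against MAARS. No untransfected macrophages, agonist or interferon treatment entered this comparison, and each group carried the transfection itself. RNA was depleted of ribosomal RNA and sequenced as paired 100-nucleotide reads.

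Proteins of the p200 family pair an N-terminal pyrin domain, which binds other pyrin domains, with a C-terminal HIN-200 domain, which binds double-stranded DNA. Some members have lost either domain. AIM2, the best known, senses DNA in the cytosol and gathers the adaptor ASC (Pycard) and caspase-1 into an inflammasome, which matures interleukin-1β and interleukin-18 and cleaves gasdermin D. The mouse genes lie in a cluster on chromosome 1 that arose by duplication, and many are interferon-inducible genes in macrophages.

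In the 4 control libraries the totals were 19287279 to 20567123 counts, and in the 4 MAARS gapmeR libraries 20839671 to 24541205. The target itself was checked first. MAARS (Gm14461, a lincRNA at chr2:78237547-78302230, plus strand, GRCm38) gave 238, 296, 240 and 249 counts in the control libraries (replicates 2, 5, 6 and 7). The MAARS gapmeR libraries (replicates 9, 11, 13 and 15) gave 163, 161, 159 and 135. The groups did not overlap, and its level fell by 0.95 on the log2 scale (SE 0.112, adjusted p = 5.8e-05, edgeR). Macrophage markers were high in every library, with a summed level of 14271 to 17696 CPM (counts relative to a library's TMM-scaled total) in control and 18020.3 to 21416 CPM in MAARS gapmeR libraries. Of the 10 macrophage markers, 3 were lower and 6 higher after knockdown, beside 24.0% and 21.3% of all genes tested.

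All 9 members were lower after MAARS knockdown, and in each the 4 MAARS gapmeR libraries lay below the 4 control libraries. The level with MAARS gapmeR ranged from 72.7% of control for Aim2 to 4.07% for Ifi205. The median log2 fold change of the 9 genes was -1.67, beside 0.00804 over all genes tested. Lower genes were common in this comparison: 24.0% of the 13051 genes tested were called lower and 21.3% higher at an adjusted p under 0.05, and in 22.8% every MAARS gapmeR library was below every control library. A log2 fold change of -1 or less with that adjusted p was found in 3.14% of the genes tested and in 8 of the 9 members, Aim2 being the exception. Among called genes 47.0% were higher, which became 60.4% when upper-quartile factors replaced TMM, and the 9 members were called lower under both. In bulk RNA, fewer cells with a transcript and less transcript per cell cannot be told apart.

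**Figure D1:**
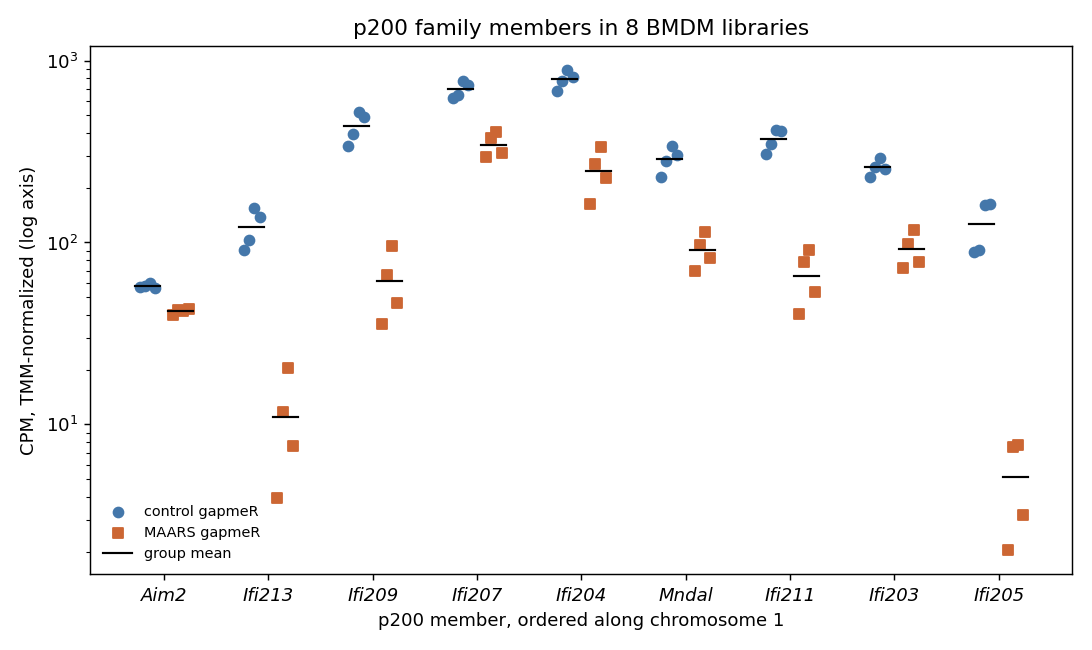
TMM-normalized CPM (log axis) of the 9 p200 members in each of the 4 control gapmeR (circles) and 4 MAARS gapmeR (squares) libraries, with a line at each group mean, genes ordered along chromosome 1. In every gene the squares lie below the circles, by the least for Aim2 (41.9 against 57.6 CPM) and, as a ratio, by the most for Ifi205 (5.11 against 126 CPM).

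The ISRE (interferon-stimulated response element) is the DNA element through which type I interferon acts on promoters, and because the members moved together their promoters were searched for its letters. RefSeq windows (GRCm38.p6, 250 bases before to 50 after a start) matched 8 of the 9 genes by symbol, in 10 windows. Ifi204 was not matched. The letters GAAANNGAAA were searched on both strands, where the reverse reads TTTCNNTTTC. They occurred in 7 of the 10 windows and 6 of the 8 genes, against 3.44% of all 32851 windows and 3.36% of the windows of genes tested. The member windows belong to genes that arose by duplication, so they are not independent of each other in this comparison. Neither Aim2 nor Ifi209 held these letters. The Aim2 window (chr1:173420354-173420653) lies inside the gene model of GENCODE M21, whose own start at chr1:173350879 was not searched. The stretches below are shown since they hold the same letters before the start in genes that fell together. Positions are counted back from -1, the last base before the RefSeq start. The match is in capitals, on the strand of the gene, with 25 bases on each side, and no printed stretch lies in an exon of GENCODE M21.
Ifi203 (chr1:173942493-173942552, minus strand, match from position -35): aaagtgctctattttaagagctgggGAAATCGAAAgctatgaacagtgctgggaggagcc
Ifi205 (chr1:174031855-174031914, minus strand, match from position -134): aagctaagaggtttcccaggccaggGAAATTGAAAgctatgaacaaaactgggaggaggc
Ifi207 (chr1:173741816-173741875, minus strand, match from position -41): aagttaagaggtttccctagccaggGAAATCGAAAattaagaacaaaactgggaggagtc
Ifi211 (chr1:173913049-173913108, minus strand, match from position -37): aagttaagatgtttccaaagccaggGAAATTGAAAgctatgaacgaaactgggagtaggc
Ifi213 (chr1:173599311-173599370, minus strand, match from position -73): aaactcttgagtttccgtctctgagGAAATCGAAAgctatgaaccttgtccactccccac
Ifi206 (chr1:173491324-173491383, minus strand, match from position -40): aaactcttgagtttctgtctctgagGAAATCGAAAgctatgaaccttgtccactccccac
Ifi214 (chr1:173536002-173536061, minus strand, match from position -79): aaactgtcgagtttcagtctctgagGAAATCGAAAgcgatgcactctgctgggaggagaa

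Ifi206 and Ifi214 are p200 genes outside the list and are described with the cluster further on. The stretch of Mndal around its match from position -36 has the same 60 bases as that of Ifi203. Its other window holds TTTCTCTTTC from position -54. Both Mndal stretches lie in exons of Mndal in GENCODE M21. The stretch of Ifi208, another p200 gene, has the same 60 bases as that of Ifi213. The exact letters GAAATCGAAA were present in 16 of the 32851 windows (0.049%), which included windows of 4 member genes and 3 other p200 genes, and 9 windows of other genes. Ifi205 and Ifi211 shared GAAATTGAAA. For contrast, the 60 bases before the start of Ifi209, which fell by 2.83 on the log2 scale, are shown without a match.
Ifi209 (chr1:173630799-173630858, plus strand): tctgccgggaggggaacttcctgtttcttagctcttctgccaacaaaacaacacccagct

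The letters TTCNNNGAA of the GAS, the element through which interferon-γ acts, read the same on both strands and occurred in 0 of the 10 member windows, against 8.3% of all windows. A match in these letters is a description of the sequence and no evidence that a factor was bound, and a window without one says nothing about the factor.

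Aim2, the inflammasome sensor (chr1:173350879-173466040, plus strand), moved least. It stood at 56.7, 57.6, 60.2 and 56.0 CPM in the control libraries, always given here in the order of replicates 2, 5, 6 and 7. In the MAARS gapmeR libraries, in the order 9, 11, 13 and 15, it stood at 40.1, 42.8, 41.8 and 43.1 CPM. The libraries of each group were close to each other, with a CV of 3.16% in control and 3.24% with MAARS gapmeR, so that a difference of 27.3% stood well outside the spread. The mean (± SD over the 4 libraries of a group, here and throughout, n = 4) went from 57.6 ± 1.82 to 41.9 ± 1.36 CPM. Fitted over all genes, this was a log2 fold change of -0.46 (SE 0.0473, adjusted p = 2.19e-05, edgeR). Of the 13051 genes tested, 1318 had a lower fold change.

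Ifi204 encodes p204, a HIN-200 protein of macrophages and the mouse gene to which RefSeq gives the synonym Ifi16, after the human DNA sensor. It was the most abundant member, at 679, 771, 888 and 816 CPM in control, and had 163, 269, 335 and 225 CPM under MAARS knockdown. The highest MAARS gapmeR library was thus below the lowest control library. The log2 fold change was -1.67 (SE 0.176, adjusted p = 2.52e-05, edgeR). Of its exonic 100-mers, 10.7% are also found in another p200 gene, mostly Ifi211.

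Ifi207, a HIN-200 gene next to Ifi204, kept the largest share of its level after Aim2. Its control libraries held 621, 650, 774 and 733 CPM, and its MAARS gapmeR libraries 294, 373, 405 and 308 CPM. The mean went from 694 ± 71.2 to 345 ± 52.8 CPM, or 49.7% of control. The log2 fold change of -1.01 (SE 0.105, adjusted p = 2.29e-05, edgeR) rests on a gene with nearly no sequence shared with the other p200 genes (0.263% of 100-mers).

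Ifi203 and Mndal, named for its likeness to the myeloid nuclear differentiation antigen, both lie on the minus strand, and their gene models overlap in GENCODE M21. Ifi203 had 230, 260, 292 and 253 CPM in control and 72.1, 98.6, 116.8 and 78.5 CPM in MAARS gapmeR libraries. Mndal had 230, 279, 337 and 302 CPM in control and 70.1, 96.4, 114.8 and 82.6 CPM in MAARS gapmeR libraries. In both, the lowest control library stood well above the highest MAARS gapmeR library. The log2 fold changes were -1.50 (SE 0.133, adjusted p = 9.33e-06) for Ifi203 and -1.66 (SE 0.146, adjusted p = 8.99e-06) for Mndal in edgeR's test. Of the exonic bases of Mndal, 4.27% overlap another gene on the same strand, Ifi203 among them, and in Ifi203 0.552% do.

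Ifi205 is also known as D3, and 15% of its 100-mers are also found in Ifi211. Ifi211 shares 56.9% of its 100-mers with other p200 genes, 37.2% with Ifi205 alone, so that the counting could divide or drop reads between them, and the level of each was uncertain. Ifi211 was at 308, 348, 417 and 409 CPM in control and at 40.2, 77.6, 91.3 and 53.2 CPM in MAARS gapmeR libraries, a log2 fold change of -2.50 (SE 0.214, adjusted p = 7.93e-06, edgeR). Ifi205 had 1730, 1785, 2953 and 3325 counts in control and 43, 189, 168 and 73 in MAARS gapmeR libraries. It was the member with the greatest fall, a log2 fold change of -4.60 (SE 0.349, adjusted p = 5.27e-06, edgeR), and 14th from the lowest of all genes tested. Summed, the pair stood at 496 ± 92.4 CPM in control and 70.7 ± 26.0 CPM with MAARS gapmeR, or 14.2% of control. That sum does not depend on how reads were divided between them, though it would on reads dropped. Summed together with Ifi204 and Mndal, which also share sequence with Ifi211, the level was 26.1% of control.

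Ifi209 (Pyhin1) and Ifi213 (Pydc4) lie in the part of the cluster nearer to Aim2. Ifi209 had 338, 396, 520 and 491 CPM in control and 35.8, 66.5, 96.1 and 46.4 CPM in MAARS gapmeR libraries, with a log2 fold change of -2.83 (SE 0.261, adjusted p = 1.15e-05, edgeR). Ifi213 had 90.4, 103, 155 and 138 CPM in control and 3.93, 11.7, 20.5 and 7.58 CPM in MAARS gapmeR libraries, with a log2 fold change of -3.47 (SE 0.353, adjusted p = 2.00e-05, edgeR). The MAARS gapmeR libraries of Ifi213 were spread the most of all members, with a CV of 65.2%, yet all were below the lowest control library. Ifi209 shares 16.9% of its 100-mers with Ifi214, and the sum of both was 13.9% of control.

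The libraries kept much the same order from gene to gene. In the control group replicate 2 was the lowest for 8 of the 9 members and replicate 6 the highest for 8. In the MAARS gapmeR group replicate 9 was the lowest for 9 of 9 and replicate 13 the highest for 8. The exceptions were Aim2 (lowest control library replicate 7, highest MAARS gapmeR library replicate 15) and Ifi205 (highest control library replicate 7). The spread within a group was narrow for Aim2 and widest for Ifi205 in control, with a CV of 33.0%.

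Per kb of exon, which allows levels of different genes to be set side by side, the order of control levels ran from Ifi204 (221 ± 24.6 CPM per kb), Ifi211 (208 ± 29.2) and Ifi207 (203 ± 20.8) through Ifi209 (123 ± 23.8), Mndal (79.1 ± 12.4), Ifi203 (38.6 ± 3.84) and Ifi205 (30.1 ± 9.92) to Ifi213 (17.8 ± 4.40) and Aim2 (16.5 ± 0.520). Neighbours in this order that differed by less than the larger of their SDs were Ifi204, Ifi211 and Ifi207, then Ifi203 and Ifi205, and then Ifi213 and Aim2. With MAARS gapmeR the order was Ifi207 (101 ± 15.4 CPM per kb), Ifi204 (69.6 ± 20.3), Ifi211 (36.7 ± 12.9), Mndal (25.1 ± 5.29), Ifi209 (17.3 ± 7.48), Ifi203 (13.6 ± 3.02), Aim2 (11.98 ± 0.388), Ifi213 (1.60 ± 1.04) and Ifi205 (1.22 ± 0.703). Here Ifi211 and Mndal, Ifi209 and Ifi203, Ifi203 and Aim2, and Ifi213 and Ifi205 differed by less than the larger SD. The level of Ifi211 carries the uncertainty of its shared sequence. Aim2, last of 9 in control, had a higher level than Ifi213 and Ifi205 after knockdown.

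**Figure D2:**
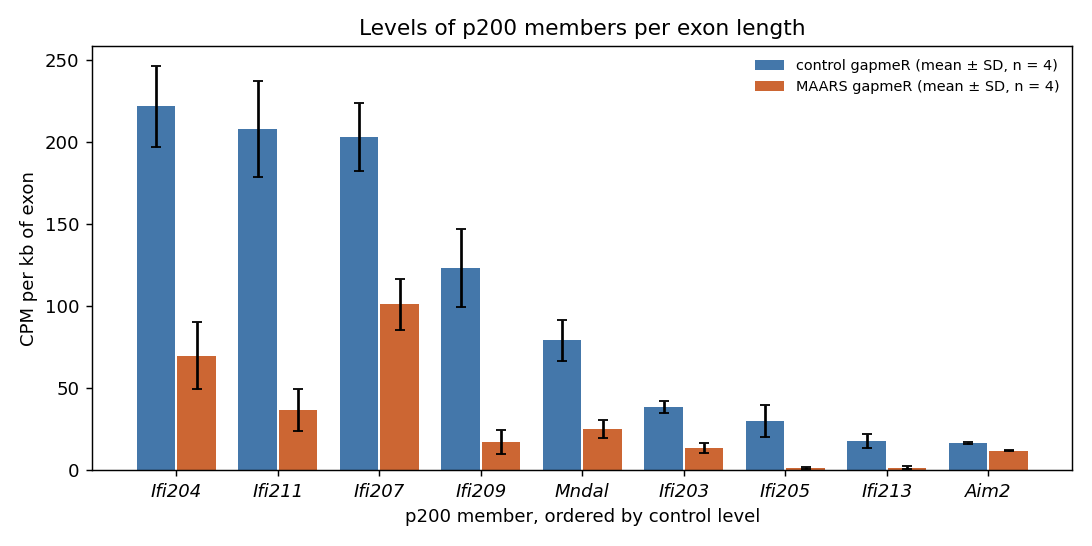
CPM per kb of exon for the 9 members, ordered by control level, with bars for the mean of 4 libraries and error bars for the SD. Ifi204, Ifi211 and Ifi207 stand highest in control at 203 to 221 CPM per kb, and Ifi207 is highest with MAARS gapmeR at 101.

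Whether the members fell by different amounts was tested by the log2 ratio of the counts of each member to those of Aim2 within a library, which does not depend on the scaling between libraries. All 8 ratios were lower with MAARS gapmeR. The smallest difference was that of Ifi207, with a mean ratio of 3.58 ± 0.130 in control and 3.03 ± 0.208 with MAARS gapmeR (SD, n = 4 each, log2 scale), a change of -0.56. The change was -1.06 for Ifi203, -1.21 for Mndal, -1.25 for Ifi204, -2.10 for Ifi211, -2.45 for Ifi209, -3.23 for Ifi213 and -4.32 for Ifi205. In no ratio did the groups overlap, and each gave p = 0.0286 by a two-sided exact permutation test and 0.0286 after Benjamini-Hochberg adjustment over the 8 ratios, the smallest p that 4 against 4 libraries allow. Aim2 thus fell by less than each other member, beyond the spread between libraries.

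Summed over the 9 members, the family stood at 2641, 2954, 3603 and 3362 CPM in the control libraries and at 721, 1044, 1229 and 848 CPM in the MAARS gapmeR libraries. The means were 3140 ± 427 and 960 ± 223 CPM, or 30.6% of control. Over the 5 members with under 10% of their 100-mers in another p200 gene (Aim2, Ifi213, Ifi207, Mndal and Ifi203) the sum was 40.9% of control. The fall was thus present in members whose reads have little sequence in common with other copies. As a share of all counts the family took 0.264% to 0.345% in control and 0.0732% to 0.125% in MAARS gapmeR libraries.

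The rest of the cluster was examined from a list of 5 other p200 genes. Ifi206, Ifi208 (Pydc3) and Ifi214 were tested and were all lower. Ifi206 went from 187 ± 41.8 to 15.3 ± 10.1 CPM, with a fitted log2 fold change of -3.61 (SE 0.362, adjusted p = 1.87e-05, edgeR). Ifi208 went from 56.4 ± 16.6 to 2.80 ± 1.29 CPM, with a fitted log2 fold change of -4.33 (SE 0.280, adjusted p = 4.58e-06, edgeR). Ifi214 had 90, 67, 126 and 155 counts in control and 1, 6, 8 and 8 in MAARS gapmeR libraries, so its log2 fold change of -4.44 (SE 0.391, adjusted p = 8.98e-06, edgeR) rests on few counts. The estimates of all 3 were lower than those of 8 of the 9 members, all but Ifi205. Of the 22 genes tested with a log2 fold change of -4 or less, 3 were the p200 genes Ifi205, Ifi214 and Ifi208. Ifi202b had at most 1 count in any library and was not tested, and Pydc5 was not matched. The pseudogene Ifi203-ps had a log2 fold change of -1.61 (SE 0.162, adjusted p = 1.89e-05, edgeR).

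**Figure D3:**
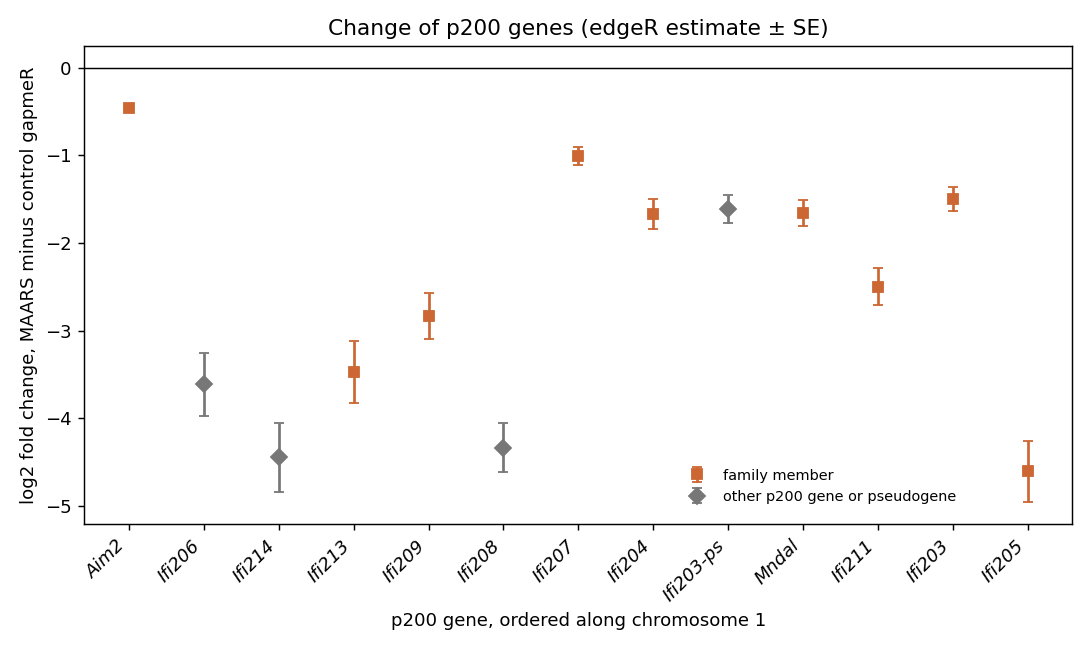
log2 fold change (MAARS minus control gapmeR, edgeR estimate with bars of 1 SE) of the 9 members (squares) and of 3 other p200 genes and the pseudogene Ifi203-ps (diamonds), ordered along chromosome 1. All 13 points lie below 0, from -0.46 for Aim2 at the first position to -4.60 for Ifi205 at the last.

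The members span chr1:173350879-174031810. The changes did not rise or fall steadily along the cluster: Ifi203 (-1.50) lies between Ifi211 (-2.50) and Ifi205 (-4.60). Neighbours among the p200 genes tested were alike in part. From Ifi206 to Ifi208 the log2 fold changes lay between -4.44 (Ifi214) and -2.83 (Ifi209). From Ifi207 to Ifi203 they lay between -2.50 (Ifi211) and -1.01 (Ifi207). Aim2 (-0.46) and Ifi205 (-4.60), at the ends of the cluster, lay outside both ranges. This grouping was seen after the values and was not tested. Within 500 kb on either side and between the p200 genes, GENCODE M21 has 27 other protein-coding genes, 19 of them olfactory receptors. None was tested, and the highest count of any in a library was 7, so the fold changes of unrelated neighbours were not measurable from these counts.

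The partners of AIM2 were read from a list of 7 inflammasome effectors, of which 6 were lower, 0 higher and 1 not called. Their median log2 fold change was -0.39. Over all genes tested, 24.0% were called lower and 21.3% higher. Casp1, the protease that AIM2 activates, was at 202, 217, 233 and 225 CPM in control and at 112, 130, 141 and 109 CPM in MAARS gapmeR libraries, a log2 fold change of -0.83 (SE 0.0807, adjusted p = 1.51e-05, edgeR). Its groups were well apart. Pycard, the adaptor, was at 43.9 ± 1.91 CPM in control and 37.5 ± 0.451 CPM with MAARS gapmeR, a log2 fold change of -0.23 (SE 0.0488, adjusted p = 2.94e-03). Of the exonic bases of Pycard, 12.8% overlap a gene on the other strand, and the strand setting of the counting is not given in the sources used here. The 2 cytokines that caspase-1 matures were both lower, Il18 with a log2 fold change of -0.65 (SE 0.119, adjusted p = 1.13e-03) and Il1b with -1.56 (SE 0.287, adjusted p = 1.12e-03), the latter from a control level of 1.87 ± 0.242 CPM.

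Of 12 genes of other inflammasomes 11 were tested, 6 were lower and 1, Nlrc4, was higher, with a median log2 fold change of -0.23. The shares over all genes tested were 24.0% lower and 21.3% higher. The 3 with the smallest p were Casp4 (caspase-11, the sensor of cytosolic lipopolysaccharide), Naip2 (a receptor for bacterial secretion system proteins) and Mefv (pyrin). Casp4 went from 74.2 ± 12.5 to 24.8 ± 2.61 CPM, with a fitted log2 fold change of -1.58 (SE 0.118). Naip2 changed by -0.50 (SE 0.0607) and Mefv by -1.10 (SE 0.194) on the log2 scale. The count of lower genes in this list went from 6 to 3 with upper-quartile factors and without control replicate 7, MAARS gapmeR replicate 11 or MAARS gapmeR replicate 13.

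Of 10 genes of cytosolic DNA sensing outside the family 9 were tested, 4 were lower and 1 higher, beside 24.0% and 21.3% of all genes tested. Zbp1, a sensor of Z-form nucleic acids, stood at 193, 216, 283 and 266 CPM in control and at 14.6, 29.9, 39.0 and 20.98 CPM in MAARS gapmeR libraries, a log2 fold change of -3.20 (SE 0.244, adjusted p = 5.27e-06, edgeR). Samhd1, an enzyme that breaks down deoxynucleotides, and Ikbke, a kinase of the IRF3 pathway, had log2 fold changes of -1.12 (SE 0.109) and -0.56 (SE 0.0660). Cgas, the enzyme that makes cyclic GMP-AMP on DNA, changed by -0.94 (SE 0.169, adjusted p = 9.85e-04, edgeR). Sting1, the receptor of that dinucleotide, was at 21.1 ± 2.35 and 19.1 ± 1.08 CPM, with overlapping groups and a log2 fold change of -0.14 (SE 0.0848, adjusted p = 0.198, edgeR). The higher gene was Irf3 at 0.16 (SE 0.0551), a call lost without a filter on low counts and in 7 of the 8 fits that left out 1 library. Trex1 is listed at 0 in all libraries, and its exons overlap another gene on the same strand in full.

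Of 13 genes of interferon signalling 9 were lower and 1, Ifnar1, higher, beside 24.0% and 21.3% of all genes tested. Their median log2 fold change was -0.22. Irf7, a transcription factor that amplifies type I interferon, was at 1047, 1200, 1603 and 1524 CPM in control and at 59.3, 177, 238 and 110 CPM in MAARS gapmeR libraries, a log2 fold change of -3.20 (SE 0.346, adjusted p = 3.05e-05, edgeR). Stat2 and Irf9, which encode subunits of a factor that binds the ISRE, were lower too. Stat2 changed by -1.52 (SE 0.139) and Irf9 by -0.71 (SE 0.103) on the log2 scale. The receptor subunits lay on both sides of 0, with Ifnar1 at 0.29 (SE 0.0496). The kinases of the list were all below 0, though not all called, with Jak2 the lowest at -0.42 (SE 0.0830).

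**Figure D4:**
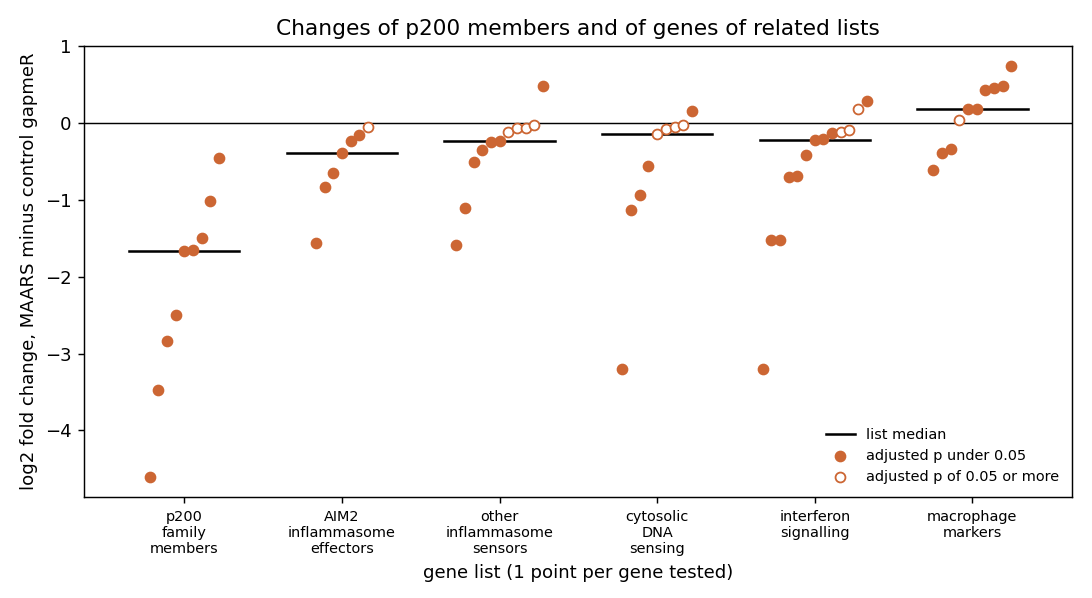
log2 fold change (MAARS minus control gapmeR) of each gene tested in 6 lists, filled where the adjusted p was under 0.05 and open otherwise, with a line at the list median. The median is -1.67 for the p200 members, between -0.39 and -0.14 for the 4 lists of partners, sensors and signalling, and 0.19 for the macrophage markers.

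By the Euclidean distance over the 8 libraries between log2 CPM values relative to the control mean, the 5 genes outside the family with the pattern most like that of Aim2 were Plekhf2 (0.0634), Mrpl2 (0.0869), Sod2 (0.0992), Bloc1s6 (0.115) and Mphosph10 (0.116). Their log2 fold changes lay between -0.48 and -0.41, beside -0.46 for Aim2, a closeness that the choice by this distance brings about.

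Markers of other cell types were read beside these results. T cell markers (6 genes) summed to 66.0 to 85.7 CPM in control and 40.7 to 51.6 CPM in MAARS gapmeR libraries, with Cd3g at 0 and 1 of the 6, Cd4, tested and lower. Neutrophil markers summed to 84.4 to 244 and 88.8 to 141 CPM, fibroblast markers to 438 to 1006 and 691 to 1193 CPM, and endothelial markers to 46.5 to 78.5 and 75.2 to 138 CPM. B cell markers stayed at or below 2.46 CPM in sum, dendritic cell markers at or below 2.76, mast cell markers at or below 0.870 and NK cell markers at or below 0.217, with Mcpt4, Fcer1a and Gzma at 0. The T cell sum was lower with MAARS gapmeR, but only Cd4 of its 6 genes was tested. Of the 6, 2 had at most 3 counts over all libraries together. Any link of Cd4 to the change of the p200 genes was not tested.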

How the data were processed

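RNA-Seq of ribodepleted RNA from mouse BMDMs transfected with control or MAARS gapmeRs was used (4 libraries each, grouped by their labels). The authors trimmed the reads with Trimmomatic 0.36, aligned them with STAR 2.5.2b to mm10 and counted them per gene with featureCounts (Subread 1.5.2). The deposited values are these raw counts, not normalized. Strand setting and treatment of reads with several matches are not given in the sources used here, so reads of near-identical p200 copies may have been dropped or divided.

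Genes were filtered with filterByExpr (minimum count 10, minimum total 15) and tested with TMM factors and the quasi-likelihood test of edgeR 4.0.16 (R 4.3.3), p-values adjusted by Benjamini-Hochberg across all 13051 tested genes and calls made at 0.05. The SE of a log2 fold change was its size over the square root of the F statistic. Ratios were compared by two-sided exact permutation tests. DESeq2 1.42.0, limma-voom (limma 3.58.1), RLE or upper-quartile factors, no filter, a mean count of at least 10 and each library left out in turn were the alternatives. The tests were checked on simulated data. In the simulated counts few genes changed and all had the same dispersion, a simpler setting than these data. Gene positions, exon lengths and shared 100-mers came from GENCODE M21 (GRCm38), which holds 99.47% of the genes, and promoter windows from RefSeq.

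The members and lists were chosen with earlier results of these data known. Named were MAARS, all p200 genes, any neighbour tested within 500 kb, from each list of partners, sensors and signalling the 3 with the lowest p, and Pycard, Casp1, Cgas, Sting1 and Irf9, and the 5 genes nearest to Aim2. Nlrc4, Irf3, Trex1, Ifnar1, Jak2, Cd4 and Ifi203-ps were named after their values were seen. Some single-gene values that this rule or the marker lists cover are not reported here. Nothing in the labels says that the libraries of a group came from separate animals or cultures, so p-values measure the spread between these libraries. Chi-square between replicates was 4.02 to 14.1 per gene, above sampling noise.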

Additional observations from a re-analysis of the deposited data

Results flagged for a closer look

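Among 62 groups of 4 libraries examined for a library far from the others, 3 were found, about what chance gives at 1 in 20. None concerned a p200 gene. Il18 stood at 11.34 CPM in MAARS gapmeR replicate 11, while the other 3 MAARS gapmeR libraries had 14.1 to 14.15 CPM. Il1b stood at 0.2785 CPM in the same library, against 0.7352 to 0.7801 CPM in the others. Samhd1 stood at 405.5 CPM in MAARS gapmeR replicate 13, against 318.2 to 329.2 CPM in the others. For Il18, Il1b and Samhd1 these libraries lay below the control libraries like the rest of their group.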

How the results depend on the processing

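All 9 members kept their direction and an adjusted p under 0.05 in 14 of 14 alternatives of the fit. The log2 fold change of Aim2 ranged from -0.47 to -0.40, that of Ifi207 from -1.10 to -0.94 and that of Ifi205 from -4.86 to -4.36, and the largest adjusted p of any member was 2.26e-04, for Ifi204 (edgeR, DESeq2 or limma-voom). The genes named by the rule that were called, outside the members, also kept direction and call in these alternatives. Sting1, not called, had an adjusted p of 0.0942 to 0.476 in them, and the call of Irf3, which the rule does not name, was lost in some as given above. Leaving out 1 library moved the ratio to Aim2 between -0.64 and -0.49 for Ifi207 and between -4.59 and -3.97 for Ifi205. With 4 against 3 libraries the smallest exact permutation p is 0.0571, so these p-values could not pass 0.05 and say nothing of stability. The summed family level was 27.7% to 33.1% of control without 1 library and 40.9% over the 5 members with little shared sequence. Those 5 were chosen by shared sequence and not by fold change. Their sum leaves out Ifi205 (-4.60), Ifi209 (-2.83), Ifi211 (-2.50) and Ifi204 (-1.67) and holds Ifi213 (-3.47, all on the log2 scale).

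The short lists moved by few genes. The other inflammasome sensors had 3 lower genes with upper-quartile factors, and 3 to 6 with 1 library left out. Interferon signalling, with 9 lower genes in the main fit, had 7 with upper-quartile factors and 7 to 11 with 1 library left out. In the same list 2 genes were higher with upper-quartile factors and 2 without a filter, and 1 to 2 with 1 library left out. Cytosolic DNA sensing had 0 higher genes without a filter, and 0 to 1 with 1 library left out. The cause of these moves was not tested. No paired analysis was possible because the groups share no replicate number. Ifi202b and the neighbouring genes had too few counts to be compared.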

Other observations

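The library order described for the p200 members (lowest control level in replicate 2 and highest in replicate 6, lowest MAARS gapmeR level in replicate 9 and highest in replicate 13) was looked for in the lists after their values were examined. It held in full for 7 of the 9 members and for 4 of 13 genes of interferon signalling, Irf7, Stat2 and Irf9 among them. It held for 2 of 9 genes of cytosolic DNA sensing (Zbp1 and Sting1), 2 of 11 other inflammasome sensors (Mefv and Casp4), 0 of 7 AIM2 inflammasome effectors and 1 of 10 macrophage markers. Cgas did not share it, with its lowest control level in replicate 5 at 23.2 CPM and its highest MAARS gapmeR level in replicate 11 at 16.8 CPM. The order was taken from the members, so their own count is high by construction. Its share over all genes tested is not given here. These are descriptions over 4 libraries a group, and no test was made of them.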
